A study of Macaca mulatta with 13 samples.

Results

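The antioxidant enzymes described here are a list of 10 genes, SOD1, SOD2, SOD3, CAT, GPX1, GPX3, PRDX3, PRDX5, TXN2 and NQO1. Members were the probe sets whose array annotation gives exactly 1 gene symbol, with that symbol on the list. This rule found 9 probe sets of 4 genes, SOD1 with 1, SOD2 with 2, CAT with 2 and PRDX3 with 4, among 24956 probe sets with 1 symbol and 52766 in all. The other 6 genes had no probe set under their symbol in the annotation used and are not analysed here. The muscle was the vastus lateralis of the thigh, taken from 13 old male rhesus macaques (Macaca mulatta), and the readout was transcript level. The 8 calorie-restricted (CR) animals were 27 to 32 years old and had eaten a diet with fewer calories for 18.5 years, and the 5 control animals were 27 to 30 years old. Each animal gave 1 one-colour Affymetrix array, ages are known per group only, and the comparison asked which transcripts differ with the diet.

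Superoxide, a by-product of the respiratory chain and of NADPH oxidases in muscle, is converted to hydrogen peroxide by the superoxide dismutases, and the peroxide is then removed by catalase, glutathione peroxidases and peroxiredoxins. SOD1 is the copper- and zinc-dependent dismutase of the cytosol and the mitochondrial intermembrane space, and SOD2 is the manganese-dependent dismutase of the mitochondrial matrix. Catalase, encoded by CAT, breaks down peroxide in peroxisomes, and PRDX3 is a peroxidase of the mitochondrial matrix that is reduced by thioredoxin 2.

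The authors' scaling gave every array a trimmed mean signal of 500. Between any pair of arrays r was 0.834 to 0.940 over 26383 probe sets, and such probe sets are no replicates. The labelled tissue was checked against fixed marker lists. The summed signal of 8 genes of fast fibres ran from 373300 to 753900 in CR and from 354900 to 650200 in controls, and that of 9 genes of slow fibres from 130700 to 690600 in CR and from 158100 to 620300 in controls. Control replicate 4 lay at the end of several lists, though its mean log2 signal of no list was far enough from the next control to be listed as an outlier. It had the lowest summed signal of 29 respiratory chain genes, 296300, and the highest of 13 endothelial and smooth muscle genes, 40800, and of 8 fibroblast and matrix genes, 162300. Its actin 3-prime over 5-prime ratio, a measure of RNA quality, was the highest of all arrays (log2 2.41). Its array quality weight was the lowest (0.485). Between the diets, 0 genes of any marker list passed limma's test, and the part of these lists in the values that follow was not tested. Of the tested genes CR was lower for 8 of 9 of slow fibres, 11 of 11 of endothelium and smooth muscle and 3 of 3 of red cells. It was higher for 6 of 8 of fast fibres, 2 of 5 of adipocytes, 3 of 8 of fibroblasts and matrix and 5 of 11 of macrophages, where 48.1% of all probe sets tested were higher. The counts of these marker lists were not computed again without control replicate 4. In whole muscle, fewer cells of a type and less RNA per cell cannot be told apart.

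None of the antioxidant enzymes passed the test of CR against control. Of the 9 probe sets, 8 were bright enough to be tested, and limma's moderated test on log2 signals with Benjamini-Hochberg adjustment over all 26383 probe sets called 0 of them. It called 0 probe sets in the whole table (0% of those tested). At an unadjusted p under 0.05 limma gave 0 of the 8, against 2.43% of all probe sets tested, and the exact permutation test over the animals gave 1 of the 8, SOD1, against 2.73% of all. CR was higher than control for 6 of the 8 and lower for 2, with a median log2 difference of 0.15, while 48.1% of all probe sets tested were higher and their median was -0.012. The values of each gene differed in how far they spread between animals, and SOD1 was the most even.

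**Figure D1:**
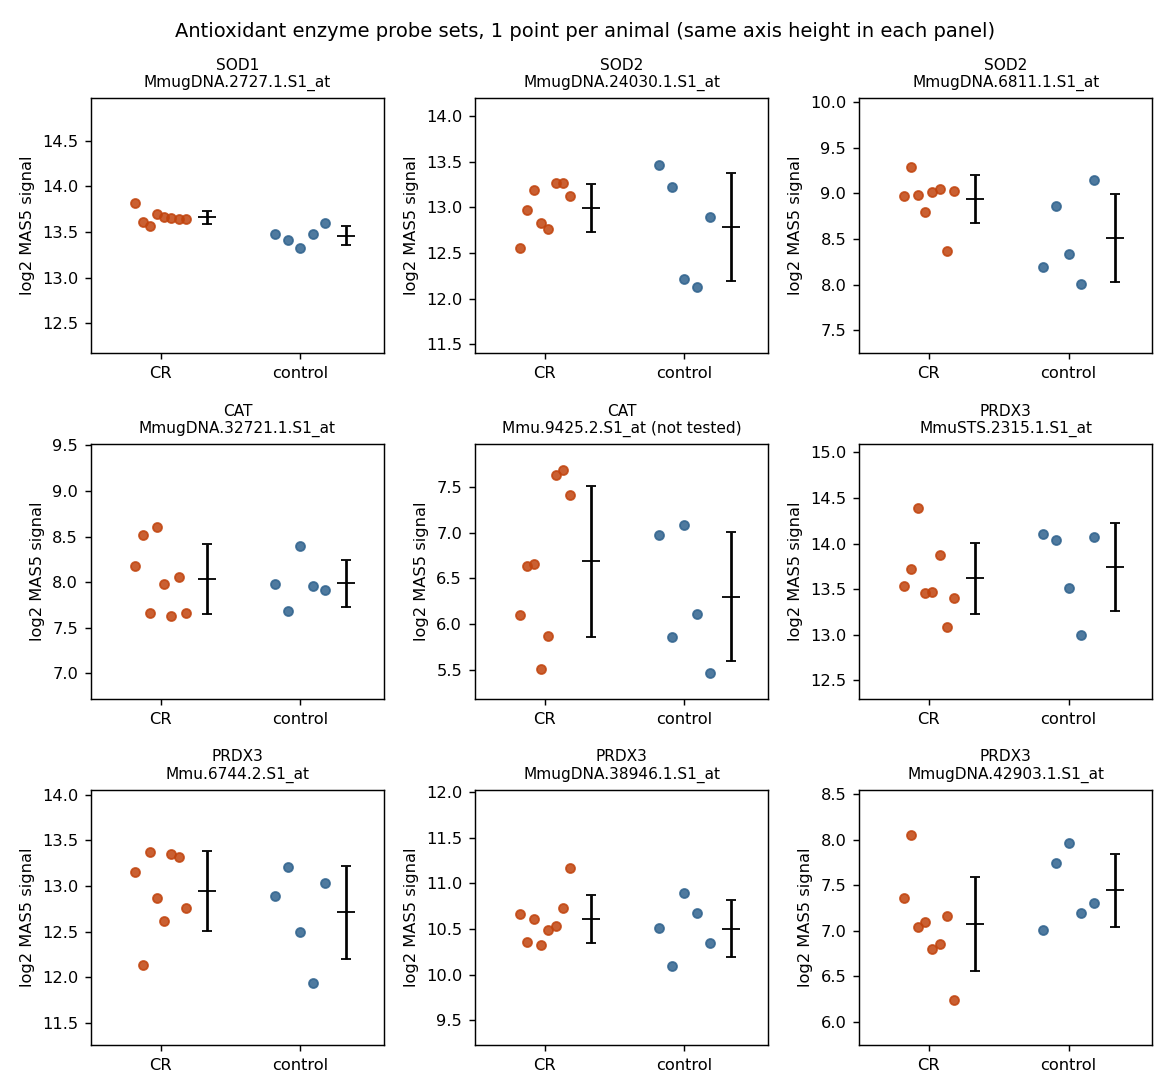
Log2 signal (y axis) of the 9 antioxidant enzyme probe sets in each animal, with CR at the left and control at the right of each panel. Points are animals, and the black mark and bar beside them are the mean and SD (n = 8 CR, n = 5 control). Each panel spans the same number of log2 units, and the SOD1 points lie closest together, with 7 of 8 CR animals above the highest control.

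SOD1, the cytosolic dismutase, had a slightly higher signal in CR muscle with little overlap between the diets. Its single probe set, MmugDNA.2727.1.S1_at, had a lowest signal of 12187, a median of 12809 and a highest of 14468 in CR. In controls its signals were 11451, 10870, 10244, 11412 and 12434. All CR animals except replicate 3 lay above the highest control, and all controls except replicate 5 lay below the lowest CR animal, so the groups overlapped by a single pair of animals. The groups did not overlap at all for 0.072% of probe sets tested, a stricter condition that SOD1 did not meet. The share of probe sets with an overlap as small as that of SOD1 was not computed. The mean signal was 12972 ± 686 in CR (SD, n = 8) and 11282 ± 809 in controls (SD, n = 5).

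The SOD1 difference was 0.20 ± 0.11 (SE) on the log2 scale, a 1.15-fold higher signal in CR, and limma's adjusted p was 0.999. Its 95% interval before adjustment ran from -0.035 to 0.44. The exact two-sided permutation test of this probe set gave p = 0.00155 over the 1287 possible splits, where the smallest p the design allows is 0.000777. A p that low or lower was found for 17 probe sets, or 0.0644% of those tested, and after adjustment over all of them the exact test's p was 0.999.

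Both tests used the same difference and differed in the spread they set it against. The SD of SOD1 between animals of the same diet was 0.086 on the log2 scale, while limma, which draws each probe set's variance towards that of probe sets of like brightness, used 0.20. Only 5 of all probe sets tested had a smaller SD within diets than SOD1, and among the 465 whose mean log2 signal lay within 0.5 of it there were 0, with a median SD of 0.36. The tightness depended in part on how the arrays were scaled. After median centring the SD was 0.18, with 202 probe sets below it, and after quantile normalization 0.12, with 67 below it.

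The exact p of SOD1 moved with the scaling as well. It was 0.127 after median centring, with a log2 difference of 0.17 and 4 of 8 CR animals above the highest control. It was 0.0645 after quantile normalization, with a log2 difference of 0.14 and 2 of 8 CR animals above the highest control. With the deposited scaling and each animal left out in turn, the exact permutation p stayed between 0.00126 and 0.00404 and the difference between 0.17 and 0.24. These sets have only 792 splits without a CR animal and 495 without a control. Their p therefore lie near the smallest possible, and the range of p is no measure of stability. The SOD1 difference was positive under each of these settings. Of the 3 scalings run, the deposited one alone gave an exact p under 0.05. Red blood cells, which are rich in SOD1 and catalase, were followed with 13 listed genes, 6 of them with a probe set. Their summed signal ran from 5438 to 94910 in CR and from 4466 to 67590 in controls, and its part in the SOD1 and CAT values was not tested.

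**Figure D2:**
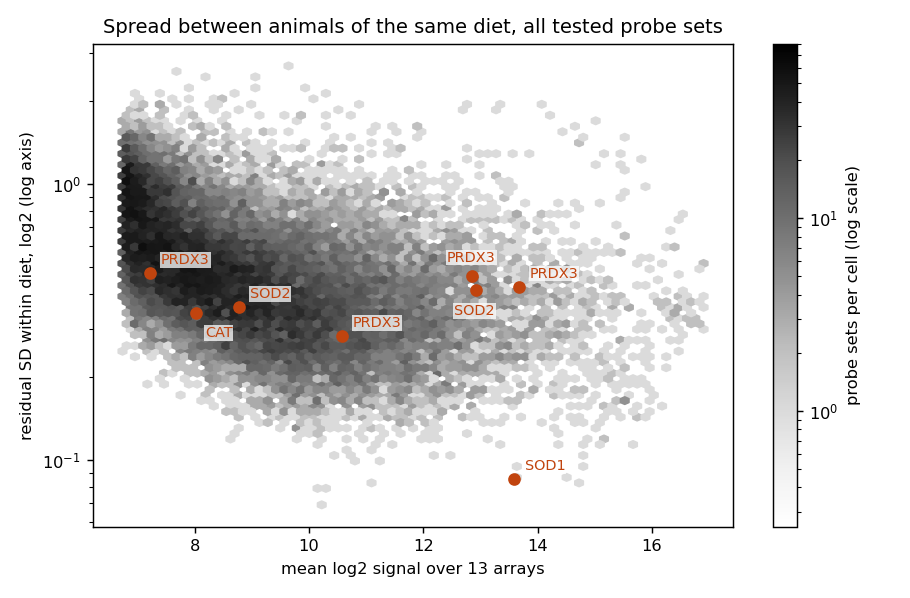
Residual SD within diets (y axis, log2 units on a log axis) against the mean log2 signal over the 13 arrays (x axis) for the 26383 probe sets tested, with darker cells holding more probe sets. The red points are the 8 tested antioxidant enzyme probe sets. SOD1, with an SD of 0.086, lies below the cloud at its brightness, and the other 7 lie within it.

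SOD2, the matrix dismutase, was measured by a bright and a dim probe set, and both had a higher mean in CR. The bright one, MmugDNA.24030.1.S1_at, had a lowest signal of 5995, a median of 8501 and a highest of 9891 in CR. In controls its signals were 11315, 9525, 4770, 4496 and 7585. The controls spread 2.52-fold and held both the highest and the lowest animal, and the CR animals, spread 1.65-fold, lay inside their range.

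The difference of the bright SOD2 probe set was 0.21 ± 0.22 (SE, log2), with limma's adjusted p at 0.999 and an exact permutation p of 0.389. Leaving out control replicate 4 or control replicate 3, the lowest controls, gave 0.049 and 0.071, and leaving out control replicate 1, the highest, gave 0.38. Control replicate 4 was also the animal with the least respiratory chain signal and the most endothelial and fibroblast signal. Its array had the highest actin 3-prime over 5-prime ratio and the lowest quality weight. With array weights the difference of the bright SOD2 probe set was 0.099, and with the RNA quality ratios as covariates it was 0.13. The part of these traits in the SOD2 values was not tested.

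The dim SOD2 probe set, MmugDNA.6811.1.S1_at, had a lowest signal of 330, a median of 512 and a highest of 625 in CR. In controls its signals were 291, 466, 322, 257 and 568. In CR 7 of 8 animals exceeded the control mean, and 3 of 5 controls lay below the lowest CR animal. The difference was 0.43 ± 0.21 (SE, log2), a 1.35-fold higher signal in CR and the largest of the tested members, with limma's adjusted p at 0.999 and an exact permutation p of 0.0684. When control replicate 5 was left out it was 0.59 with an exact p of 0.00808, and without control replicate 4 it was 0.30 with an exact p of 0.182, both unadjusted. The bright and dim probe sets ordered the animals differently, with r = 0.293 between them across the 13 arrays.

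CAT, the peroxisomal catalase, had diet means that differed less than its replicates. The tested probe set, MmugDNA.32721.1.S1_at, had a lowest signal of 198, a median of 260 and a highest of 389 in CR. In controls its signals were 253, 206, 336, 248 and 242. The CR animals fell on both sides of the controls, with 2 of 8 above the highest and 3 of 8 below the lowest. The difference was 0.049 ± 0.22 (SE, log2; adjusted p = 0.999 from limma), with a 95% interval from -0.42 to 0.52 before adjustment. It turned to -0.027 without control replicate 2, -0.019 without CR replicate 2 and -0.032 without CR replicate 4.

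The other CAT probe set had a mean signal of 92.9, below the limit of 107 under which probe sets were not tested. Its signals had a lowest value of 45.6, a median of 100 and a highest of 206 in CR. In controls they were 126, 57.9, 136, 69.1 and 44.1. CR replicates 6, 7 and 8, at 198, 206 and 170, were above every control, and the other CR animals lay within the control range. In the fit with no filter the difference was 0.39 ± 0.47 (SE, log2; adjusted p = 0.999 from limma). The CAT probe sets did not order the animals alike.

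PRDX3, the matrix peroxiredoxin, was measured by 4 probe sets, and they did not give 1 answer. Their log2 differences between the diets were -0.13 ± 0.23, 0.23 ± 0.24, 0.10 ± 0.17 and -0.37 ± 0.30 (SE), from the brightest to the dimmest, and limma's adjusted p was 0.999 for each. The mean of the 4 probe sets differed by -0.040. All 4 intervals included 0, and whether the probe sets differ from each other in the diet difference was not tested.

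The brightest PRDX3 probe set, MmuSTS.2315.1.S1_at, had a lowest signal of 8720, a median of 11595 and a highest of 21495 in CR. In controls its signals were 17741, 16900, 11672, 8206 and 17250. The controls fell into 3 animals near the top of the range and 2 lower ones, and only CR replicate 3 exceeded them all. Its difference was -0.32 when control replicate 4 was left out and -0.040 when control replicate 1 was.

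The second PRDX3 probe set by brightness had a lowest signal of 4475, a median of 8279 and a highest of 10616 in CR. In controls its signals were 7594, 9458, 5801, 3894 and 8369. Of the CR animals 3 of 8, replicates 3, 6 and 7, lay above the highest control, and control replicate 4 was the lowest of all animals. Without that animal the difference was 0.038, and without control replicate 2 it was 0.36.

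The third, MmugDNA.38946.1.S1_at, had a lowest signal of 1275, a median of 1522 and a highest of 2308 in CR, and 1462, 1092, 1909, 1643 and 1307 in controls. Here control replicate 4 lay above the CR median and control replicate 2 was the lowest of all animals, an order unlike that of the brighter probe sets. Without control replicate 2 the difference was -0.00094. The dimmest, MmugDNA.42903.1.S1_at, had a lowest signal of 75.9, a median of 134 and a highest of 266 in CR, and 128, 215, 250, 146 and 158 in controls. It was below the control mean in all CR animals except replicate 2, and 3 of 8 lay below the lowest control. Its exact permutation p was 0.208. Leaving out 1 animal moved the difference between -0.51, without CR replicate 2 (exact permutation p = 0.0442, unadjusted), and -0.24, without control replicate 3.

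Across the 13 arrays the 6 pairs of PRDX3 probe sets had r between -0.442 and 0.478, with a median of -0.202. The 9380 pairs of tested probe sets that share a gene had a median r of 0.318, with quartiles of 0.0035 and 0.616. These are descriptions, since the probe sets share arrays and were not sampled independently. The annotation does not give which transcripts of PRDX3 each probe set detects.

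**Figure D3:**
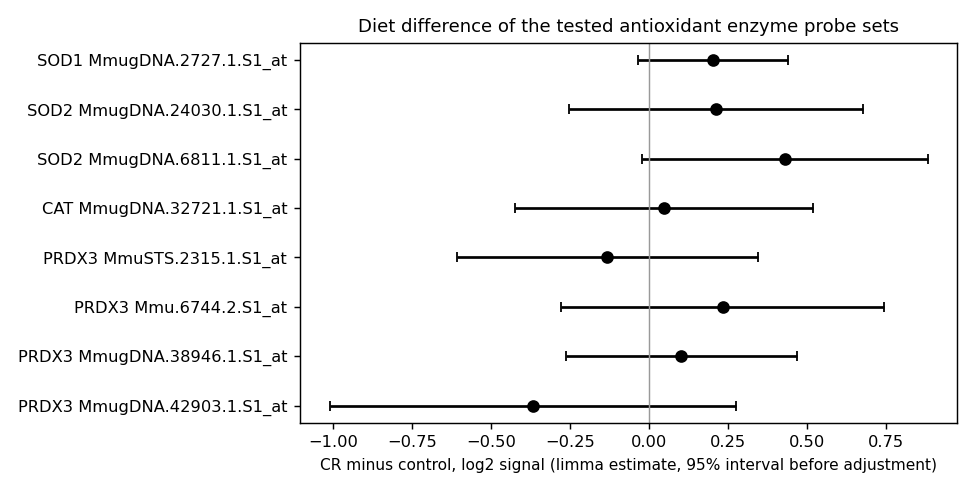
Log2 difference of CR minus control (x axis) for the 8 tested antioxidant enzyme probe sets, with points as limma estimates and bars as 95% intervals before adjustment. Every bar crosses 0, and the 4 PRDX3 estimates lie on both sides of it, from -0.37 to 0.23.

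The mitochondrial members were set beside the respiratory chain, whose electron leak is a source of superoxide, handled by SOD2, and so of peroxide, handled by PRDX3. The mean log2 signal of 29 respiratory chain genes was 13.59 ± 0.20 in CR (SD, n = 8) and 13.47 ± 0.42 in controls (SD, n = 5), and control replicate 4 was lowest at 12.84. Of these 29 genes 25 were higher in CR, where 48.1% of all probe sets tested were higher. Limma's adjusted threshold was passed by 0 of them, beside 0% of all, and the unadjusted one by 0, beside 2.43% of all. Without control replicate 4 the number higher was 11, and the median log2 difference was -0.025 in place of 0.15.

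The signal of the second PRDX3 probe set by brightness followed the respiratory chain mean from animal to animal. Pearson's r was 0.873 (permutation p = 0.00015, adjusted p = 0.00135 over 9 probe sets) and Spearman's rho 0.852 (permutation p = 0.00035, adjusted p = 0.00315) over 13 animals. Without control replicates 1 and 4, the animals farthest from the median of the respiratory chain mean, r was 0.899, and among the 8 CR animals alone it was 0.948. An r as high was found for 0.678% of all probe sets tested.

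The bright SOD2 probe set did likewise, less closely. Its r was 0.811 (permutation p = 0.00075, adjusted p = 0.00337) and its rho 0.797 (permutation p = 0.00155, adjusted p = 0.00697). Its r was 0.631 without control replicates 1 and 4 and 0.566 among the 8 CR animals, and 2.04% of probe sets tested had an r as high. No r is given within the 5 controls, which are fewer than the 6 animals set as the least for a correlation, so how far the controls carry the relation is shown only by the values in CR alone and without control replicates 1 and 4.

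The other 7 member probe sets gave no relation that passed after adjustment. Among those of the same genes, the brightest PRDX3 probe set had the highest r, and the rest had an r of 0.256 or less. The third and the dimmest PRDX3 probe sets had r = -0.172 (permutation p = 0.565, adjusted p = 0.565) and r = -0.302 (permutation p = 0.312, adjusted p = 0.479). The dim SOD2 probe set had r = 0.256 (permutation p = 0.401, adjusted p = 0.479), and among the 8 CR animals -0.578 where the bright one had 0.566. The tested CAT probe set had r = -0.363 (permutation p = 0.224, adjusted p = 0.479) and the untested one 0.244 (permutation p = 0.426, adjusted p = 0.479). The brightest PRDX3 probe set had r = 0.603 (permutation p = 0.0278, adjusted p = 0.0834) and rho = 0.621 (permutation p = 0.0265, adjusted p = 0.0795), and r = 0.327 without control replicates 1 and 4. For SOD1 r was 0.257 (permutation p = 0.391, adjusted p = 0.479) and rho 0.0714 (permutation p = 0.822, adjusted p = 0.925). The signals share their arrays and array scaling, and the part of these in the relations was not tested.

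**Figure D4:**
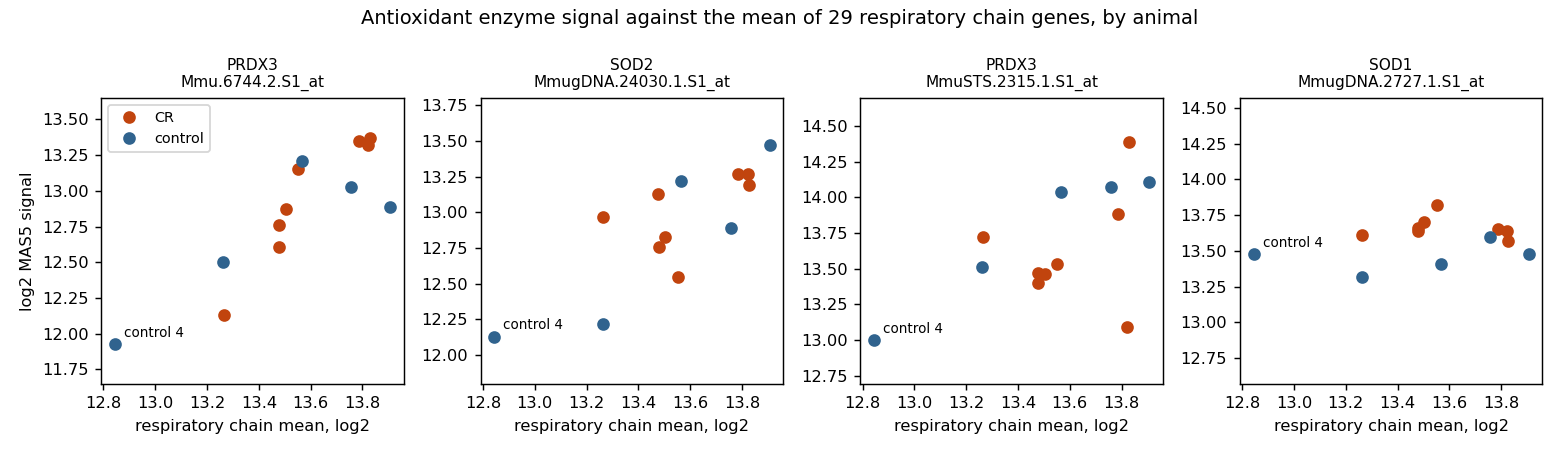
Log2 signal (y axis) of 4 antioxidant enzyme probe sets against the mean log2 signal of 29 respiratory chain genes (x axis), 1 point per animal, with CR in red and control in blue. The first PRDX3 panel and the SOD2 panel rise from lower left to upper right with r of 0.873 and 0.811, the other PRDX3 panel with r of 0.603, and SOD1 is nearly flat with r of 0.257.

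For each of the 4 genes the brightest probe set was compared with that of 9811 other genes, and the 2 with the highest Pearson r over the 13 arrays are given as a description. They were chosen for their r, so no test applies. For SOD1 they were HSP90AB1, a cytosolic chaperone of the HSP90 family (r = 0.804, rho = 0.797), and FAM131A (r = 0.796, rho = 0.808). Without the 2 arrays farthest from the SOD1 median their r was 0.657 and 0.584. HSP90AB1 and FAM131A were also higher in CR, by 0.59 ± 0.21 and 0.58 ± 0.19 (SE, log2), with limma's adjusted p at 0.999 for each. An r over all 13 arrays takes in such a difference between the diets. For the genes named here, r with the diet means removed was not computed. For SOD2 they were the homeobox gene HOXC10 (r = 0.944, rho = 0.901) and POLN, a DNA polymerase (r = 0.931, rho = 0.808). For CAT they were TBC1D15, a GTPase-activating protein for Rab proteins (r = 0.862, rho = 0.846), and ARNTL2, a transcription factor of the clock family (r = 0.776, rho = 0.852). For the brightest PRDX3 probe set they were MYH2, the myosin heavy chain of fast oxidative fibres (r = 0.918, rho = 0.885), and GNRHR2 (r = 0.825, rho = 0.841). Without the 2 arrays farthest from the PRDX3 median the r with MYH2 was 0.871.

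The other genes of the antioxidant system were described with a list of 60, of which 49 had a named probe set and 47 were tested. None passed. CR was higher for 27 (57.4%) and lower for 20, where 48.1% of all probe sets tested were higher. The median log2 difference was 0.10, against -0.012 over all probe sets tested. At an unadjusted p under 0.05 limma gave 0 of the 47, beside 2.43% of all probe sets tested, and the exact permutation test 1 of the 47, beside 2.73% of all, so neither share was above that of the whole table. Without control replicate 4 there were 26 higher and 21 lower, and the median was 0.038. Per animal, the mean log2 signal of the 47 genes was 11.61 ± 0.047 in CR (SD, n = 8) and 11.58 ± 0.085 in controls (SD, n = 5).

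Of the genes higher in CR, the 5 with the lowest p were a redox-sensitive chaperone-like protein, a thioredoxin-like reductase, a methionine sulfoxide reductase, an oxidation resistance factor and a small selenoprotein. PARK7, also known as DJ-1, differed by 0.35 ± 0.17 (SE, log2), and its signal exceeded the control mean in 7 of 8 CR animals. TXNDC17 differed by 0.32 ± 0.16 and was the 1 gene of the 47 under 0.05 in the exact permutation test (p = 0.0466, unadjusted), where 2.73% of all probe sets tested were under it. MSRB3 differed by 0.33 ± 0.17, with differences from -0.10 to 0.24 at its other 5 probe sets. OXR1 differed by 0.39 ± 0.21 and exceeded the control mean in 8 of 8 CR animals, with differences from -0.10 to 0.13 at its other 3 probe sets. SELENOW, the selenoprotein, which is abundant in muscle, differed by 0.35 ± 0.20. Limma's adjusted p was 0.999 for each.

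Of the genes lower in CR, the 5 with the lowest p came from several branches. NNT, the mitochondrial transhydrogenase that makes NADPH, differed by -0.37 ± 0.25 (SE, log2), against -0.0074 at its second probe set. GPX8, a peroxidase of the endoplasmic reticulum, differed by -0.49 ± 0.36. SELENOP, the plasma selenium carrier, differed by -0.22 ± 0.18, against 0.057 at its second probe set. CCS, the copper chaperone that loads SOD1, differed by -0.62 ± 0.52 on a dim probe set with an SD of 0.93 in CR and 1.09 in controls. NFE2L1, a transcription factor of the cap'n'collar family, differed by -0.22 ± 0.18, with 7 of 8 CR animals below the control mean and differences from -0.052 to 0.063 at its other 2 probe sets. Limma's adjusted p was 0.999 for each.

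The brightest genes of the list were SELENOW, MSRB3, TXNIP, SQSTM1 and SELENOP. TXNIP, which binds and inhibits thioredoxin, differed by 0.023 ± 0.19 (SE, log2), with differences from -0.32 to -0.11 at its other 4 probe sets. SQSTM1, the autophagy receptor p62, whose gene is a target of the factor NRF2, differed by 0.30 ± 0.19, with 0.31 at its second probe set. NFE2L2, which encodes NRF2, the main activator of antioxidant genes, differed by 0.10 ± 0.17, with differences from -0.12 to 0.22 at its other 4 probe sets. KEAP1, which holds NRF2 in the cytosol for degradation, differed by 0.20 ± 0.17. These last 2 genes were named after their values were seen. Adjusted p was 0.999 in limma for these genes too.

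**Figure D5:**
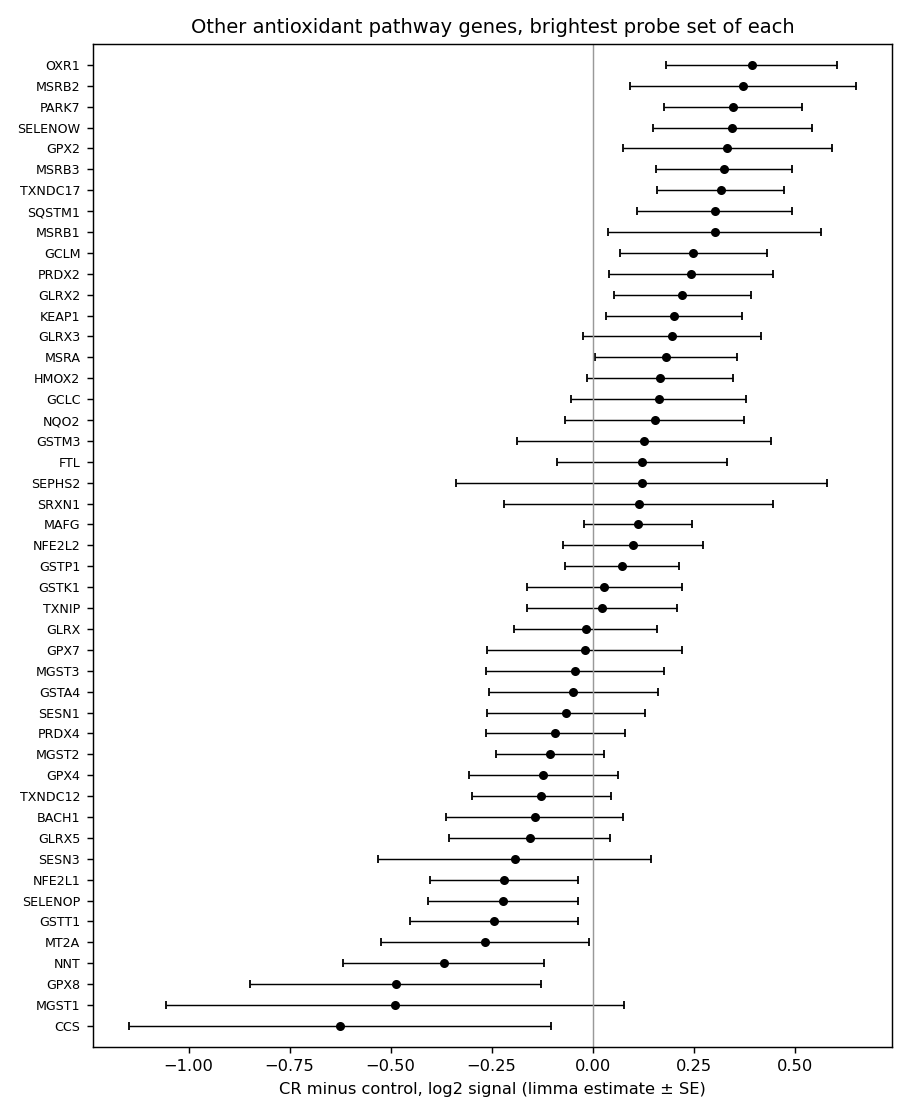
Log2 difference of CR minus control (x axis) for the 47 tested genes of the wider antioxidant list, 1 probe set per gene, with points as limma estimates and bars as ± 1 SE. The estimates run from -0.62 for CCS to 0.39 for OXR1, with 27 above 0 and 20 below, and none passed the adjusted threshold.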

How the data were processed

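Per the labels' protocols, muscle RNA was made into labelled cRNA and hybridised to Affymetrix arrays. The authors deposited intensity values on a linear scale, 1 signal for a probe set on an array, and the submitters' processing notes name MAS5. Its version was not given in the sources used here. Because every array has the same trimmed mean, a change shared by most transcripts of 1 animal is scaled away.

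From 52865 probe sets 99 controls were removed. Signals were floored at 1 (137 values) and log2 transformed, and the dimmer 50% by mean log2 signal were left out of the tests. The diets were compared two-sided with limma 3.58.1 (R 4.3.3; lmFit, then eBayes with a variance trend) at a Benjamini-Hochberg adjusted p under 0.05, and each probe set also with an exact two-sided permutation test of the mean difference. The limma procedure was checked on simulated data. Correlation p-values come from 100000 permutations. By the labels every array came from its own animal, and the number of animals limits the precision: the median half-width of a 95% interval was 0.55 (log2).

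The members, gene lists, tests and alternatives were chosen with earlier results of these data known. Named genes were all members, the 2 genes most like each member by Pearson r, and of the wider list the 5 with the lowest p in each direction and the 5 brightest. Genes were named from the platform annotation. Alternatives covered scaling, an offset of 16, the filter, the variance trend, array weights, RNA quality ratios, the replicate block and each animal left out. The exact test under other scalings or with an animal left out, and the list counts without control replicate 4, were added after seeing the data. The GAPDH 3-prime over 5-prime ratio was 0.71 ± 0.13 in CR (log2, SD, n = 8) and 0.58 ± 0.23 in controls (SD, n = 5), with an exact permutation p of 0.214. The actin ratio was 1.74 ± 0.31 in CR (log2, SD, n = 8) and 1.75 ± 0.38 in controls (SD, n = 5), with an exact permutation p of 0.986. The actin ratio was highest in control replicate 4, at 2.41. Figures were drawn with matplotlib 3.10.9. No array date or batch is given in the sources used here.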

Additional observations from a re-analysis of the deposited data

Results flagged for a closer look

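Single animals that stood apart within their diet were looked for in the 9 member probe sets, the named genes of the wider list and the marker lists. Of 60 groups examined 3 held such an animal, and chance alone gives about 1 in 20, which is also 3. No member probe set was among them. TXNIP had its lowest log2 signal in CR replicate 1, 14.22, where the next CR animal had 14.96, and in control replicate 1, 14.82, where the next control had 15.08. The mean log2 signal of the fast fibre genes was lowest in CR replicate 1, 14.44, where the next CR animal had 15.54.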

How the results depend on the processing

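Of 306 member differences listed under the alternatives, 297 kept their direction, and no member passed under any of them (lowest adjusted p of 0.903). The count is no measure of robustness. The filter, the variance trend and the exact test leave a difference unchanged, and the exact tests added later repeat differences already counted. The number of probe sets past limma's threshold was 0 throughout, except for 1 without control replicate 1 and 1 without control replicate 5, so it ran from 0 to 1; neither was a member. With the replicate block, the PRDX3 probe set MmugDNA.38946.1.S1_at turned to -0.017, and the block changed no call. Animals of the same replicate number did not deviate together (r from -0.203 to 0.0202 over 5 numbers), so no sign of pairing was seen. This check cannot exclude a pairing that leaves no shared deviation. Leaving out 1 animal moved the difference of that PRDX3 probe set between -0.00094 and 0.20 and that of the tested CAT probe set between -0.032 and 0.15. Without control replicate 2 they were -0.00094 and -0.027, and CAT was -0.019 without CR replicate 2 and -0.032 without CR replicate 4. The cause was not tested. The other 6 member probe sets kept their direction under every alternative run. With RNA quality ratios as covariates SOD1 differed by 0.17 and the bright SOD2 probe set by 0.13. The CAT and dimmest PRDX3 probe sets were too dim for the brightest 25%. The median half-width of a 95% interval before adjustment was 0.55 over all probe sets tested, and the tested member differences were at most 0.43 in size. The members' own intervals varied in width, from -0.035 to 0.44 for SOD1 and from -0.022 to 0.88 for the dim SOD2 probe set. Every tested member's interval included 0, so differences of that size could be missed.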
